A study of Sus scrofa with 16 samples.

Results

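The data describe 10 genes whose mature liver products circulate in blood plasma, as they were measured in the diaphragm and the psoas muscle of Iberian pigs. The genes are ALB, TF, AHSG, FGB, FGG, HP, AMBP, APOC3, APOA1 and APOH. All probe sets annotated with exactly 1 of these symbols were taken, low values included, which gave 12 probe sets for the 10 genes, out of 24123 probe sets and 6765 genes with a symbol of their own on the array. The genes were chosen from their higher diaphragm than psoas values in these same arrays. The difference between the muscles is therefore given as a description with no test, and tests are given only for feeding level and sex, which did not enter the choice.

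RNA from each muscle of 8 pigs was hybridised to Affymetrix porcine arrays, 1 array per muscle and animal, 16 arrays in all. All animals were 211 days old. Females under a feed restriction of 20% were animals 5 and 8, females at the high feeding level were animals 6 and 7, males under the restriction were animals 2 and 3, and males at the high level were animals 1 and 4. The labels tie the diaphragm and the psoas array of each number to the same pig. When the restriction began and whether the males were castrated were not given in the sources used here. Each value is log2 expression, so a difference of 1 is a doubling, and 4 was used as a floor below which a level was read only as low. Between 11025 and 11163 probe sets per array were at or above 4, and the array medians lay between 3.56 and 3.62. Signals are not set against each other between probe sets, and the number of arrays limits the precision.

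Hepatocytes, the main cells of the liver, secrete most of the proteins of blood plasma. Albumin carries fatty acids and keeps water in the vessels, transferrin carries iron, fibrinogen forms the clot, haptoglobin binds free haemoglobin, and the apolipoproteins coat lipid particles. Skeletal muscle is not known as a main source of these proteins, although it takes up several of them from the blood. In pieces of whole muscle, fewer cells of a type and less RNA per cell cannot be told apart.

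The muscle identity of the samples was checked first. The mean over 8 skeletal muscle genes lay between 14.16 and 14.31 on the diaphragm arrays and between 14.49 and 14.65 on the psoas arrays, and CKM, the muscle creatine kinase, averaged 15.16 in diaphragm and 15.15 in psoas. MYH2, a fast myosin heavy chain, averaged 12.52 in diaphragm and 15.26 in psoas (limma, adjusted p = 3.84e-09). It had by far the largest difference of the 8 muscle genes, whose median difference, diaphragm minus psoas, was -0.015. Of the 10 genes, 8 had every psoas array below 4, and all 10 had at least 1 diaphragm array at or above 4, which follows in part from how they were chosen. The exceptions in psoas were APOA1, which was above 6 on all 16 arrays, and FGG, whose probe set of higher mean reached 4 on 3 psoas arrays. The second probe set annotated as TF carries another gene ID, for which RefSeq lists the synonym PICA and which neighbours transferrin in the Sscrofa11.1 assembly. It stayed between 2.09 and 2.22 on all 16 arrays and is not used below as transferrin.

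**Figure D1:**
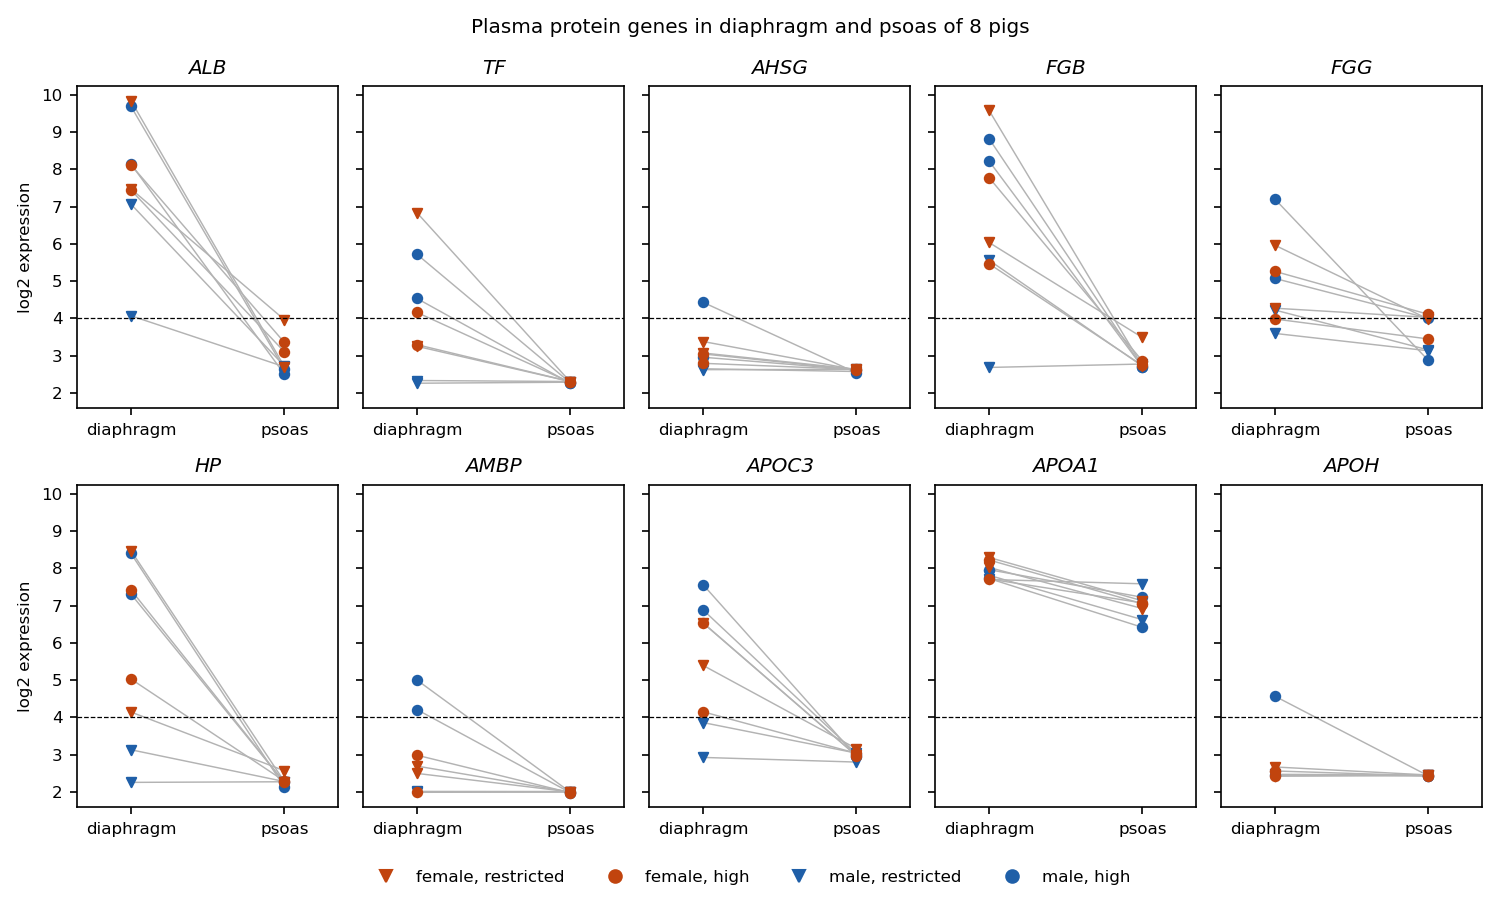
Log2 expression of the 10 plasma protein genes in diaphragm (left of each panel) and psoas (right), with a grey line joining the muscles of each of the 8 animals, colour for sex, triangles for restricted and circles for high feeding, and a dashed line at the floor of 4. ALB in diaphragm spreads from 4.07 to 9.84 while all of its psoas values stay below 4, and APOA1 sits above 6 in both muscles.

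The carrier proteins were described first. ALB, which encodes albumin, had diaphragm values of 9.69, 7.06, 4.07, 8.14, 7.47, 7.44, 8.12 and 9.84 in animals 1 to 8, against psoas values of 2.64, 2.72, 2.70, 2.50, 3.97, 3.10, 3.35 and 2.71 in the same animals. Every diaphragm array was above every psoas array, but the lowest diaphragm array, of animal 3, was close to the highest psoas array, of animal 5. The mean difference, diaphragm minus psoas, was 4.77 ± 1.89 (SD, n = 8), and with the low psoas arrays taken at the floor the diaphragm was at least 13.3-fold higher. Within the diaphragm the highest array was 54.7-fold above the lowest.

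TF, which encodes transferrin, was read from the probe set that carries its own gene ID. It had diaphragm values of 5.72, 2.33, 2.26, 4.53, 3.25, 3.29, 4.16 and 6.84 in animals 1 to 8, against 2.26 to 2.30 over the 8 psoas arrays. Animals 1, 4, 7 and 8 were at or above the floor in diaphragm, while animals 2 and 3 lay at the psoas level, so the muscles overlapped. The mean difference was 1.76 ± 1.62 (SD, n = 8), and the bound against the floor was at least 1.03-fold.

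AHSG encodes fetuin-A, a plasma glycoprotein that binds calcium phosphate. Its diaphragm values had a lowest of 2.62, a median of 3.0 and a highest of 4.43, against a lowest of 2.54, a median of 2.62 and a highest of 2.63 in psoas. Only the diaphragm array of animal 1 was above 4. Of the other members, AMBP and APOH were likewise carried by few arrays.

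The clotting and acute-phase proteins came next. FGB, which encodes the fibrinogen beta chain, had diaphragm values of 8.23, 5.56, 2.68, 8.83, 6.04, 5.47, 7.78 and 9.59 in animals 1 to 8, against a lowest of 2.69, a median of 2.73 and a highest of 3.49 in psoas. The diaphragm of animal 3 was at the psoas level and the other 7 diaphragm arrays were above every psoas array. The mean difference was 3.94 ± 2.32 (SD, n = 8), or at least 6.82-fold, and the highest diaphragm array was at least 48.0-fold above the lowest, which was taken at the floor.

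HP, which encodes haptoglobin, had diaphragm values of 7.31, 3.13, 2.25, 8.40, 4.14, 5.03, 7.42 and 8.47 in animals 1 to 8, against 2.13 to 2.57 over the psoas arrays. Animals 1, 4, 7 and 8 formed the upper end, and animals 2 and 3 were below the floor in both muscles. The mean difference was 3.48 ± 2.50 (SD, n = 8), or at least 3.41-fold, and within the diaphragm the highest array was at least 22.2-fold above the lowest, taken at the floor.

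FGG, the fibrinogen gamma chain, was measured by a pair of probe sets that did not give the same picture. With the probe set of higher mean, called the first here, it had diaphragm values of 5.07, 4.22, 3.60, 7.20, 4.27, 5.26, 3.98 and 5.96 in animals 1 to 8, against a lowest of 2.87, a median of 3.71 and a highest of 4.11 in psoas. With the second it had diaphragm values of 6.16, 2.55, 2.41, 5.91, 2.91, 3.69, 5.74 and 7.33, against 2.40 to 2.46 in psoas. Both were higher in diaphragm on average, by 1.36 ± 1.32 and by 2.16 ± 1.92 (SD, n = 8 each), but the highest animal was 4 with the first and 8 with the second, and their Pearson r over the 8 diaphragm arrays was 0.634. Leaving out animal 4 lowered the mean difference with the first probe set to 0.93.

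AMBP encodes the precursor of alpha-1-microglobulin and bikunin. It was at 5.0 in the diaphragm of animal 1 and 4.21 in that of animal 4, and the other 6 diaphragm arrays lay between 1.99 and 2.98, against 1.98 to 2.01 in psoas. The muscles therefore overlapped at the low end, and 2 arrays carried the level above the floor.

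The apolipoproteins fell into different patterns. APOC3, an inhibitor of lipoprotein lipase, had diaphragm values of 7.56, 3.86, 2.92, 6.89, 5.40, 4.15, 6.54 and 6.54 in animals 1 to 8, against 2.80 to 3.16 in psoas. It was higher in diaphragm than in psoas in all 8 animals, with 6 diaphragm arrays at or above 4, and animal 3 lay within the psoas range. The mean difference was 2.49 ± 1.65 (SD, n = 8), or at least 2.79-fold.

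APOA1, the main protein of high-density lipoprotein, had diaphragm values of 7.96, 7.81, 7.70, 7.73, 8.02, 7.71, 8.23 and 8.29 in animals 1 to 8, against psoas values of 7.22, 6.62, 7.58, 6.42, 6.92, 7.07, 7.05 and 7.13. Every diaphragm array was above every psoas array, and the mean difference was 0.93 ± 0.40 (SD, n = 8), a 1.91-fold higher level. It was the member with the smallest spread in diaphragm, with an SD of 0.23, and 5778 of 11467 tested probe sets had a larger one. APOA1 and APOC3 lie in the same apolipoprotein gene cluster with APOA4 and APOA5 in the Sscrofa11.1 annotation, and their diaphragm ranges were 0.59 and 4.64.

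APOH, a phospholipid-binding apolipoprotein, was at 4.57 in the diaphragm of animal 1 and between 2.42 and 2.67 in the other 7 diaphragm arrays, against 2.42 to 2.46 in psoas. Without animal 1 its mean difference dropped to 0.04, against 0.31 ± 0.75 over all 8 animals (SD).

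A probe set entered the tests if it was at or above 4 on at least 4 of the 16 arrays, which 11467 did. Of the members, 7 passed through 8 probe sets, and AMBP, APOH and AHSG did not. The groups did not overlap for 2 of the 10 members, ALB and APOA1, and for 1.63% of all tested probe sets. Since that contrast chose the genes, nothing is read from the pair of numbers. The median difference between the muscles was 1.56 over the 10 members, or 0.956 with values below 4 set to 4, and it was -0.02 over all tested probe sets.

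The spread between animals is given as a description, since 5 of the 7 tested members had no psoas array at or above 4 and so passed the filter through high diaphragm arrays alone. The SD over the 8 diaphragm arrays was between 1.19 and 2.44 for the 6 tested members other than APOA1, against a median of 0.24 over all tested probe sets, and 0.968% of tested probe sets had an SD over 1. The mean of the 7 tested members in diaphragm was 7.36, 4.85, 3.64, 7.39, 5.51, 5.48, 6.60 and 7.93 in animals 1 to 8, against 3.43, 3.26, 3.36, 3.13, 3.78, 3.52, 3.46 and 3.44 in psoas. Animals 8, 4, 1 and 7 were thus the 4 highest in diaphragm. In psoas the means lay close together, but 5 of the 7 members were below the floor there on every array, so the animals are not read as alike. APOA1, above the floor on all arrays, had an SD of 0.36 in psoas and 0.23 in diaphragm.

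The animals differed in how many of the genes they showed. All 10 members were at or above 4 in the diaphragm of animal 1, 8 in that of animal 4, 7 in that of animal 8, 6 each in those of animals 5, 6 and 7, 4 in that of animal 2 and 2 in that of animal 3, ALB and APOA1. The 15 pairs among ALB, TF, FGB, FGG, HP and APOC3 had Pearson r between 0.56 and 0.95 over the 8 diaphragm arrays, with a median of 0.86. Spearman rho ran from 0.52 to 0.98, with a median of 0.83. When the 2 arrays farthest from the median of the x measure were left out, the lowest r was 0.23. Over all 45 pairs of the 10 members the median rho was 0.71, and the lowest was 0.14, for FGG with APOA1 (r = -0.05), so the order of the animals was not shared by every pair. These correlations describe genes chosen together in shared arrays and carry no p.

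**Figure D2:**
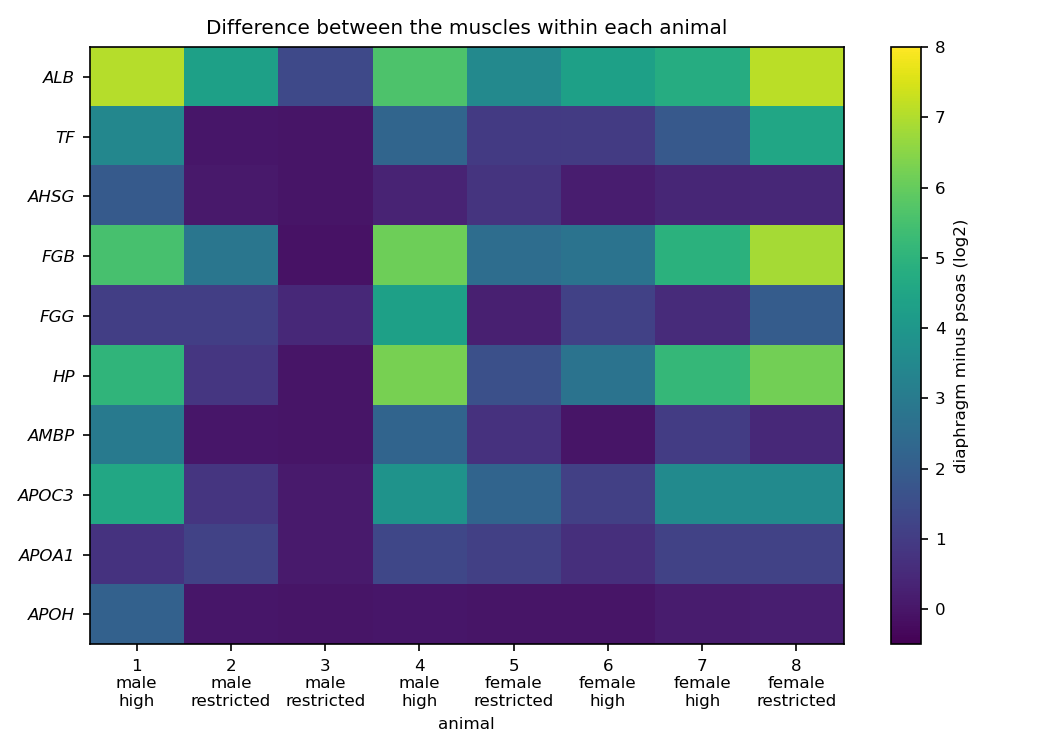
Difference in log2 expression, diaphragm minus psoas, for each of the 10 plasma protein genes (rows) in each of the 8 animals (columns, with sex and feeding level). Brighter cells are larger differences. Animals 1, 4 and 8 have the largest ones, up to 7.14 for ALB in animal 8, and animal 3 is below 0.5 for every gene but ALB, at 1.37.

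The profile was not a single scale, however, since animals with alike means differed by gene. Animals 1 and 4, both males at the high feeding level, had means of 7.36 and 7.39. ALB was 1.55 higher in animal 1 than in animal 4, TF 1.19, AHSG 1.48, APOH 2.12, AMBP 0.79 and APOC3 0.68. Other members ran the other way: animal 1 minus animal 4 was -1.1 for HP, -0.60 for FGB and -2.13 for the first FGG probe set, although it was 0.25 for the second. With 1 array per animal these differences have no replicate check.

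Feeding level was tested within the diaphragm with sex in the model, on 4 restricted and 4 high animals. No member passed the test, and neither did any other probe set (limma, 0% of 11467 at adjusted p under 0.05, with 1101 probe sets and no member under 0.05 unadjusted). HP averaged 4.50 ± 2.76 in restricted and 7.04 ± 1.43 in high diaphragms (SD, n = 4 each), a difference of -2.54 ± 1.33 (SE) with limma adjusted p = 0.576 and a 95% interval from -5.62 to 0.54. ALB averaged 7.11 ± 2.37 in restricted and 8.35 ± 0.95 in high diaphragms, a difference of -1.24 ± 1.07 with adjusted p = 0.719. The groups overlapped for both genes, and the highest diaphragm array of all, that of animal 8, was a restricted one.

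The other members had lower means in restricted diaphragms too, except APOA1. The restricted minus high difference was -1.61 ± 0.96 for APOC3 (SE, limma adjusted p = 0.610) and -1.61 ± 1.37 for FGB (adjusted p = 0.714). It was -0.76 ± 1.03 for TF (adjusted p = 0.824), -0.87 for the first FGG probe set and -1.57 for the second. APOA1 differed by 0.05 ± 0.15 (adjusted p = 0.938), with an interval from -0.30 to 0.40. The interval of HP was far wider, so a feeding difference of HP the size of several doublings could not be told from none with these animals. With the low filter removed, AMBP, APOH and AHSG differed by -1.25, -0.50 and -0.38, each with adjusted p = 0.875.

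Sex was tested in the same fit on 4 females and 4 males. No member passed, with 0.122% of probe sets passing in the diaphragm (limma, 14 of 11467). ALB averaged 8.22 ± 1.13 in female and 7.24 ± 2.37 in male diaphragms (SD, n = 4 each), a difference of 0.98 ± 1.07 (SE) with limma adjusted p = 0.909. APOA1 averaged 8.06 ± 0.26 in female and 7.80 ± 0.12 in male diaphragms, with adjusted p = 0.824. The differences of HP, FGB, TF and APOC3 were 0.99, 0.89, 0.67 and 0.35, with adjusted p between 0.919 and 0.961. The female minus male sign of ALB, HP, FGB, TF, APOC3 and FGG turned when single animals were left out.

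Both restricted males lay below both high males for 6 of the 7 tested members, all but APOA1, against 15.8% of all tested probe sets. In females this held for 0 of the 7 members, against 20.3%. The members move together across animals, so they are not separate pieces of evidence. Both restricted males, and high male 1 but not high male 4, also had the higher actin 3' to 5' signal described below. HP was at 3.13 and 2.25 in the restricted males 2 and 3, against 7.31 and 8.40 in the high males 1 and 4. In females it was at 4.14 and 8.47 in the restricted animals 5 and 8, against 5.03 and 7.42 in the high animals 6 and 7, so that these overlapped. The feeding difference of HP was 0.08 in females and -5.16 in males.

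A term for sex by feeding, added after the values were seen, was tested across all probe sets. For APOC3 the restricted minus high difference was 0.62 in females and -3.83 in males. The term, females minus males, was 4.46 ± 1.13 (SE, limma adjusted p = 0.9999). For FGB, TF, HP and ALB the term was 5.59, 4.15, 5.25 and 4.23, with the same adjusted p. No probe set passed the adjusted threshold, 0% of 11467, and 291 were under 0.05 unadjusted, 5 of them member probe sets. Each combination of sex and feeding held 2 animals.

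**Figure D3:**
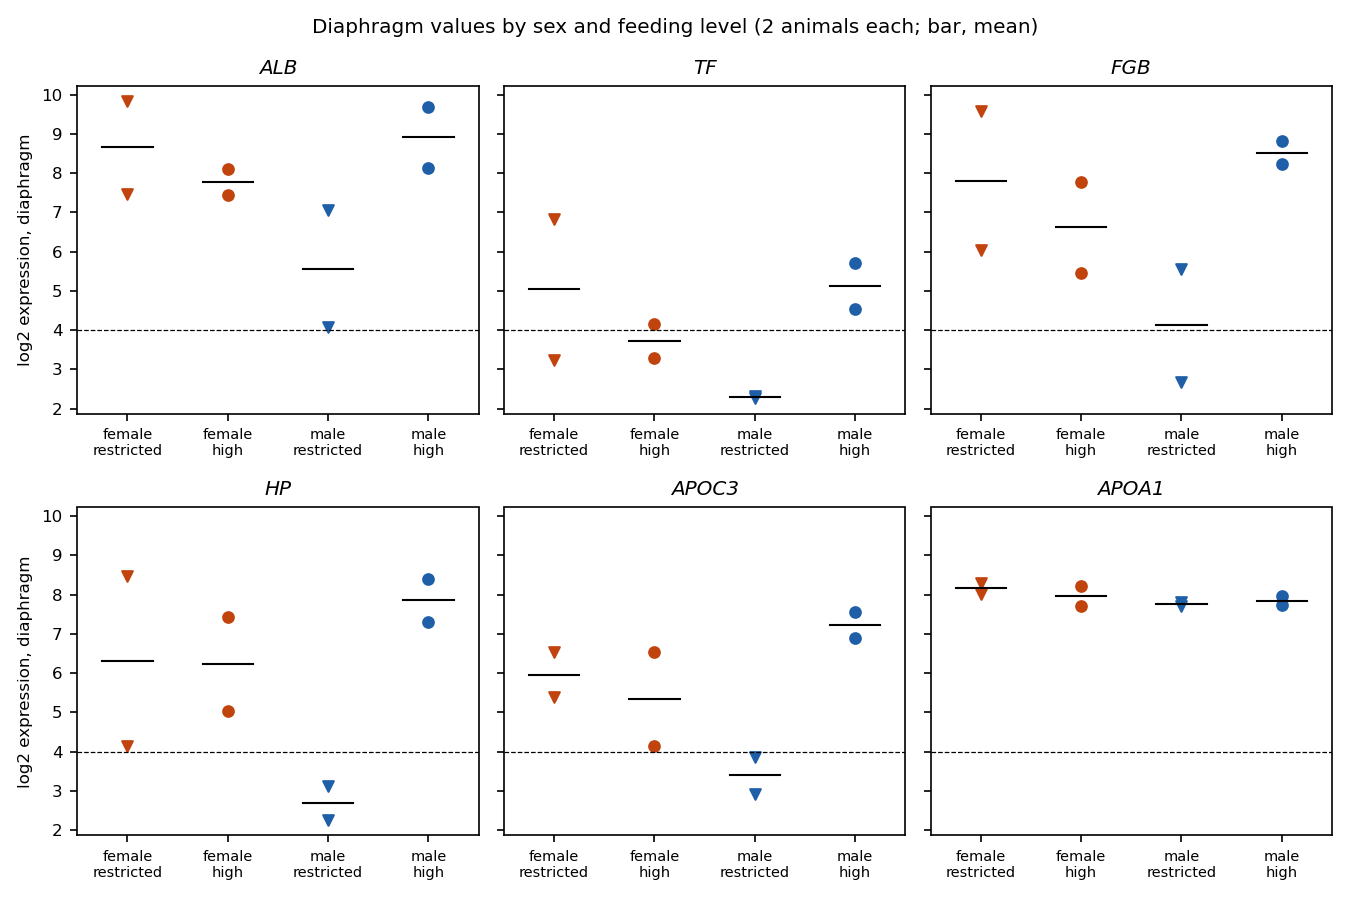
Log2 expression in diaphragm of 6 plasma protein genes by sex and feeding level, 1 point per animal (2 per group), with the mean as a bar and the floor of 4 dashed. HP sits at 2.25 and 3.13 in restricted males, against 7.31 and 8.40 in high males, whereas the female groups overlap, and APOA1 lies between 7.70 and 8.29 throughout.

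In psoas no member passed for feeding (limma, 0% of probe sets, 1291 under 0.05 unadjusted) or for sex (0.0959%, 11 probe sets). ALB averaged 3.28 ± 0.53 in female and 2.64 ± 0.10 in male psoas (SD, n = 4 each), a difference of 0.64 ± 0.25 (SE) with limma adjusted p = 0.382. All of these ALB values were below the floor. The psoas of animal 5, a restricted female, was the highest for ALB, FGB and HP, at 3.97, 3.49 and 2.57.

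Genes with a like pattern were sought among all tested probe sets by Pearson r with the mean of the 7 tested members over the 8 diaphragm arrays. An r of at least 0.9 was reached by 13 probe sets, 0.113% of those tested. Of these, 6 were member probe sets, which enter or share the mean, and 4 had no gene symbol. An r of at most -0.9 was reached by 25 probe sets, 7 of them with a diaphragm range of at least 1. The other 3 at 0.9 or more were A2M and, with a diaphragm range under 1, WDR45B and TIMP1. The count was 20 to 37 when 1 animal was left out, and a fixed r is reached more easily with fewer arrays. The most alike of the probe sets without a symbol had diaphragm values of 7.46, 3.53, 3.16, 8.15, 4.61, 4.52, 7.51 and 8.55 in animals 1 to 8, against 3.0 to 3.38 in psoas, with r = 0.96.

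The 15 named genes most alike, among those with a diaphragm range of at least 1, had r between 0.78 and 0.90. A2M, alpha-2-macroglobulin, a protease inhibitor of plasma, was the first. It had diaphragm values of 4.53, 2.26, 2.23, 5.02, 2.57, 2.66, 5.15 and 6.67 in animals 1 to 8, against 2.23 to 2.26 in psoas. Only animals 1, 4, 7 and 8 were above the floor, the 4 that were highest for the members. It was followed by PERP, a desmosomal membrane protein, C1R, a protease of the complement system, RARRES2, which encodes the adipokine chemerin, MT-2B, a metallothionein, and C4A, a complement component. SH3BGR, SRPRA, AMZ2, MDK, CYP3A39, DKK2, ARF2, SLC25A39 and GRN completed the 15.

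These genes did not share a direction between the muscles. Of the 15, 4 were higher in diaphragm, 4 were lower and 7 did not pass, against 12.4% of tested probe sets higher and 14.6% lower (limma, adjusted p under 0.05). C1R was at 8.52 to 9.70 in diaphragm and 7.22 to 8.42 in psoas, a difference of 1.04 ± 0.17 (SE). RARRES2 was at 7.95 to 9.13 in diaphragm and 7.20 to 8.02 in psoas, a difference of 0.92 ± 0.16. PERP was at 2.88 to 6.20 in diaphragm and 5.98 to 7.41 in psoas, a difference of -1.76 ± 0.36. DKK2, a Wnt antagonist, fell by 1.94 and SH3BGR, a muscle-expressed gene, by 1.64. SLC25A39, a mitochondrial carrier, fell by 0.70, with adjusted p = 0.0701 without animal 2, 0.0543 without animal 3 and 0.0539 with no filter, and it differed by -0.35 (adjusted p = 0.0871) with the actin signal as a covariate. Every psoas array was below 4 for 2 of the 15, A2M and CYP3A39. Both were among the 4 called higher and passed the filter through diaphragm arrays alone. With no filter neither was called (limma adjusted p = 0.108 and 0.0587).

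**Figure D4:**
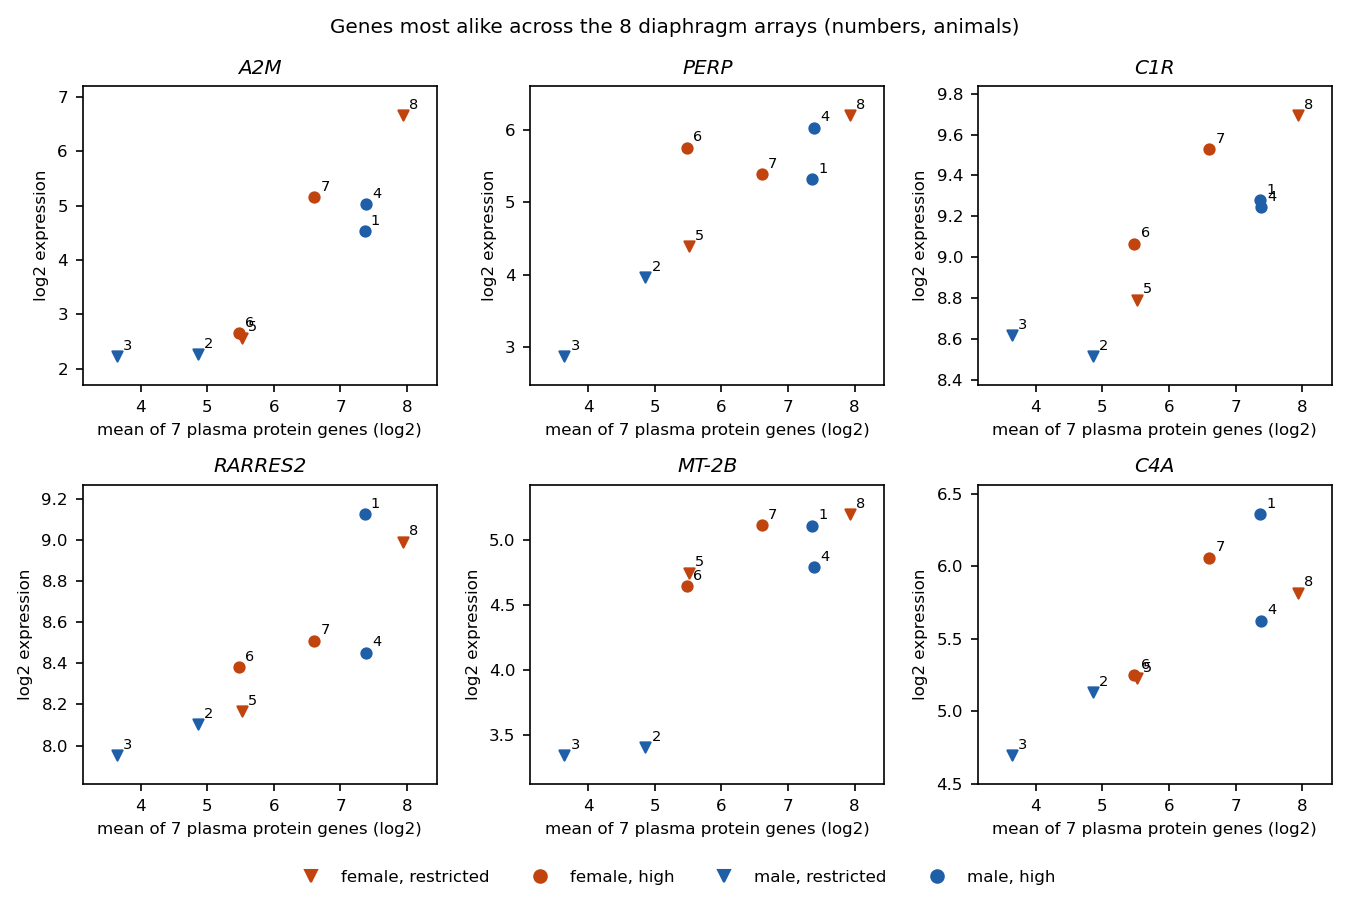
Log2 expression of the 6 genes with the highest Pearson r (vertical axes, each on its own scale) against the mean of the 7 tested plasma protein genes (horizontal axes) over the 8 diaphragm arrays, with animal numbers beside the points. A2M lies between 2.23 and 2.66 in animals 2, 3, 5 and 6 and between 4.53 and 6.67 in animals 1, 4, 7 and 8.

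Further plasma proteins of the liver were read from a list of their genes, of which 48 were on the array. On all 16 arrays 33 of them were below 4, and 9 were tested. Of the 9, 3 rose in diaphragm, 1 fell and 5 did not pass (12.4% and 14.6% of all probe sets rose and fell), with a median difference of 0.81 against -0.02 over all tested probe sets. APOE, the apolipoprotein of remnant particles, which macrophages and other tissues also make, averaged 6.03 in diaphragm and 5.0 in psoas, a difference of 1.03 ± 0.18 (SE, limma adjusted p = 0.00107). SERPING1, the C1 inhibitor, rose by 0.88 (adjusted p = 0.00141).

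A2M rose by 1.64 ± 0.55 (SE, adjusted p = 0.039), a call that was lost without animal 1, 4 or 7 (adjusted p = 0.0858, 0.0934 and 0.103) and with no filter on low values (0.108). It had passed that filter only through its 4 high diaphragm arrays. SAA2, a serum amyloid A, fell by 0.44 (adjusted p = 0.0152, 0.0507 without animal 4 and 0.0511 with no covariates). AGT, angiotensinogen, differed by 1.36 with adjusted p = 0.052, and ITIH4 by 0.81 with adjusted p = 0.303. The mean of this list over the diaphragm arrays had r = 0.90 with the member mean, and it includes the 33 genes below 4 on all arrays.

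Genes that hepatocytes use mainly inside the cell or in the membrane were read in the same way, since most of their products are not secreted. Of 37 on the array, 29 were below 4 on all arrays, among them HNF4A and FOXA2, transcription factors of the hepatocyte, with highest diaphragm values of 3.69 and 2.39, and CPS1, an enzyme of the urea cycle, with 3.13. Of 7 tested, 1 rose, 1 fell and 5 did not pass, shares near the 12.4% higher and 14.6% lower of all tested probe sets. CYP3A39, a drug-metabolising cytochrome P450, had diaphragm values of 5.49, 3.58, 3.56, 5.63, 5.09, 3.58, 4.10 and 5.48 in animals 1 to 8, against 3.35 to 3.70 in psoas. It rose by 1.13 ± 0.33 (SE, limma adjusted p = 0.0191, and 0.0522 and 0.0531 without animals 4 and 5). It had passed the filter through diaphragm arrays alone, and with no filter adjusted p was 0.0587. CYP3A29, another cytochrome P450 of the list, averaged 6.31 in diaphragm and 7.17 in psoas, a difference of -0.86 (limma adjusted p = 0.217). It was higher in diaphragm in 2 of the 8 animals, and its r with the member mean was -0.31.

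ASL, argininosuccinate lyase, fell by 0.60 (adjusted p = 0.0428), and that call was lost in 6 of the 8 fits without 1 animal (all but those without animals 5 and 8), with adjusted p up to 0.111, and with no filter (0.108). With the actin signal as a covariate it differed by -0.33 with adjusted p = 0.235. FBP1, a gluconeogenic phosphatase, differed by 0.43 with adjusted p = 0.0828 and passed at 0.0311 with the animal as a block. The list mean ranged from 2.89 to 3.22 in diaphragm and from 2.92 to 3.06 in psoas, and its r with the member mean was 0.76. Both ranges lie below the floor, so this r includes many values read only as low.

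Over both liver lists, 71 genes were below 4 on every psoas array. A diaphragm array lay at least 0.5 above all psoas arrays for 23 of them, or 32.4%, and no gene showed the reverse. A diaphragm step of 0.5 was also found for 6.18% of all probe sets low in psoas, counted per probe set and not per gene. A psoas step of 0.5 was found for 4.97% of probe sets low in diaphragm. The 71 genes were instead taken as low in psoas, so that share is no background for the absent reverse. The step of 0.5 was chosen after values had been seen. The highest array came from animal 4 for 7 of the 23 genes, from animal 8 for 7, from animal 1 for 6, from animal 7 for 2 and from animal 3 for 1. Animals 2, 5 and 6 were highest for none. As shares of the 23 these were 30.4% for animal 4, 30.4% for animal 8 and 26.1% for animal 1, against 11.8%, 12.6% and 24.1% of all psoas-low probe sets with such a step, so the share of animal 1 was near that background. PLG, plasminogen, and GC, the vitamin D-binding protein, were highest in animal 8, at 5.31 and 5.11, against psoas maxima of 2.40 and 2.51. CYP3A46, a cytochrome P450, was highest in animal 4 at 5.88 and VTN, vitronectin, at 4.22, while APOB, the core protein of low-density lipoprotein, F9, a clotting factor, and C9, a complement component, were highest in animal 1 at 4.30, 4.15 and 4.43. The gene from animal 3 was NR1I2, a nuclear receptor, at 2.98.

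**Figure D5:**
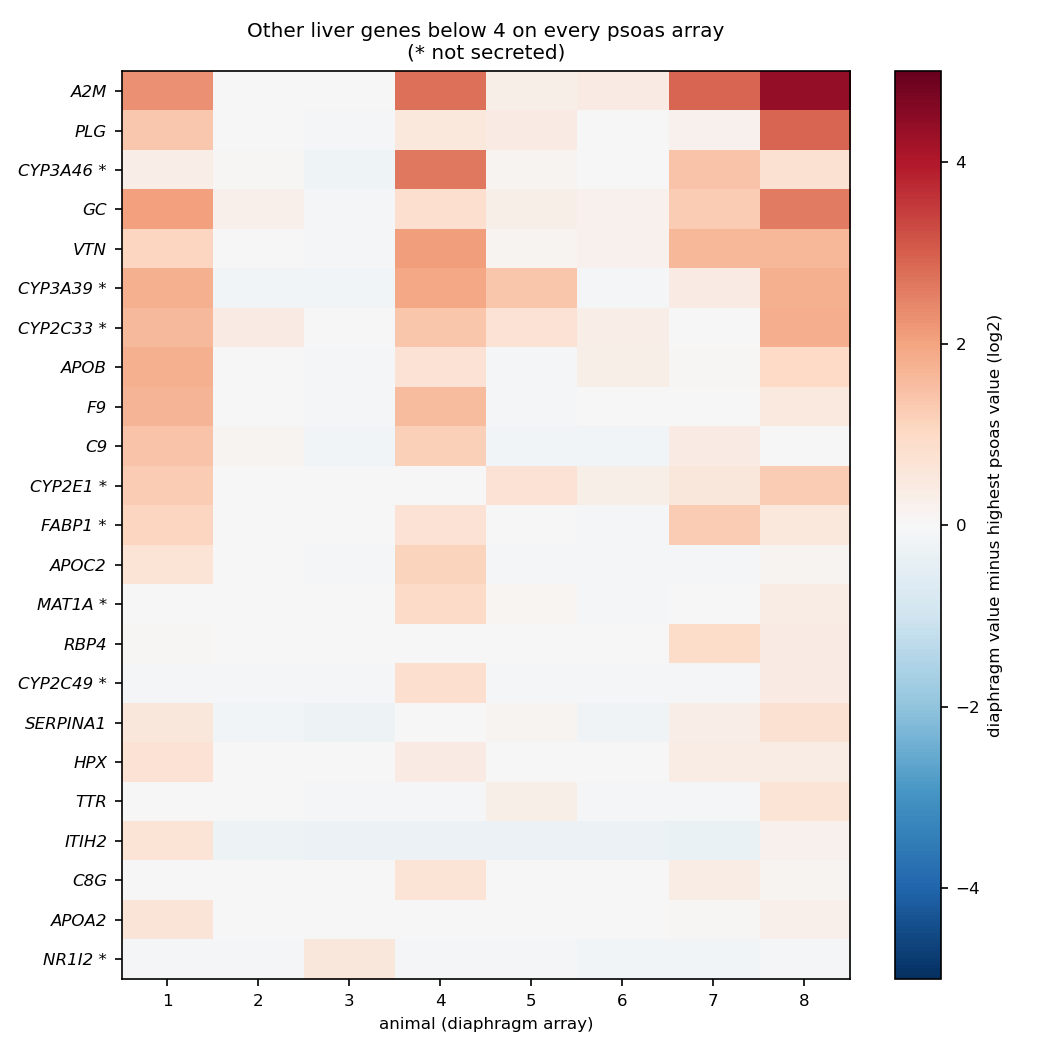
Diaphragm value minus the highest psoas value (log2) for the 23 other liver genes that were below 4 on every psoas array and had a diaphragm array at least 0.5 above it, by animal. Red is above the highest psoas array, and an asterisk marks genes whose products are not secreted. Most of these genes stay below the floor of 4 on every array. Animals 1, 4 and 8 carry most of the red, up to 4.41 for A2M in animal 8, and in animal 3 the largest step is that of NR1I2, at 0.58.

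Markers of other cells were set beside these values. Of the macrophage and sinusoid genes, 6 were on the array and 4 tested, of which 2 rose and 2 did not pass, against 12.4% and 14.6% of all probe sets higher and lower. VSIG4, a complement receptor of resident macrophages, rose by 0.89 (limma adjusted p = 0.0346) and LYVE1, a hyaluronan receptor of lymphatic and sinusoidal endothelium, by 0.44 (adjusted p = 0.0329). Each of these calls was lost in 5 of the 8 fits without 1 animal: VSIG4 without animal 1, 3, 4, 5 or 7, with adjusted p up to 0.0977, and LYVE1 without animal 1, 2, 5, 7 or 8, with adjusted p up to 0.0906. With no filter adjusted p was 0.0943 for VSIG4 and 0.0760 for LYVE1, and with the actin signal as a covariate 0.0831 and 0.112. CD163, the receptor that clears haptoglobin bound to haemoglobin, differed by 0.61 with adjusted p = 0.107, and passed at 0.0313 with the animal as a block. CD5L and MARCO were below 4 on all arrays. The mean over the genes of this list was 3.43 to 4.48 in diaphragm and 3.14 to 3.76 in psoas, and its r with the member mean over the diaphragm arrays was 0.61.

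Of the bile duct genes, 4 of 6 were below 4 on all arrays, namely EPCAM, SOX9, KRT19 and CFTR. ANXA4, an annexin that many tissues express, rose by 0.99 (limma adjusted p = 2.5e-05), and SPP1 differed by -0.98 with adjusted p = 0.32. All 5 mesothelial genes on the array and all 5 lung epithelial genes were below 4 on every array. The list mean was 2.29 to 2.47 in diaphragm and 2.25 to 2.38 in psoas for mesothelium.

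Neither of the 2 tested erythrocyte genes passed (limma), with HBB, a haemoglobin chain, at 7.82 in diaphragm and 7.90 in psoas. ALAS2, the haem synthesis enzyme of red cell precursors, was at 7.29 in the diaphragm of animal 1, against 3.77 to 5.02 in the other diaphragms and 2.60 to 4.65 in psoas. Of 3 tested adipocyte genes, 2 rose (12.4% of all probe sets did): FABP4 by 1.31 and CFD by 0.55, while ADIPOQ differed by 1.27 with adjusted p = 0.0877. The adipocyte list mean had r = 0.22 with the member mean. The same r was 0.49 for bile duct, 0.25 for erythrocyte, 0.11 for skeletal muscle, 0.01 for mesothelium and -0.43 for lung epithelium. The part of cells of the liver, macrophages or fat in the values of the 10 genes was not tested.

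The partners of plasma proteins on muscle and vessel cells were the last group. Of 10 on the array, 8 were tested, of which 3 rose, 1 fell and 4 did not pass (12.4% and 14.6% of all probe sets rose and fell). ABCA1, which loads lipid onto APOA1, averaged 7.25 in diaphragm and 6.10 in psoas, a difference of 1.15 ± 0.22 (SE, limma adjusted p = 0.00188). LPL, the lipoprotein lipase that APOC3 inhibits, rose by 0.90 (adjusted p = 0.0164, and 0.0685 with the actin signal as a covariate), and SPARC, an albumin-binding matrix protein, by 0.45 (adjusted p = 0.00369).

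SCARB1, the receptor for high-density lipoprotein, fell by 0.50 (adjusted p = 0.0328), and that call was lost without animal 2, 4, 5, 6 or 8, with adjusted p up to 0.0895, and with no filter (0.0808). TFRC, the transferrin receptor, differed by -1.20 with adjusted p = 0.0762, and FCGRT, the receptor that recycles albumin, by -0.08. The mean of these partners had r = 0.37 with the member mean over the diaphragm arrays.

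The 3' to 5' signal of the actin control probe sets, which rises as RNA is shorter, split the diaphragms. It was 4.28, 4.21, 4.07 and 4.33 in the diaphragms of animals 1, 2, 3 and 5, and 3.37, 3.49, 3.35 and 3.36 in those of animals 4, 6, 7 and 8, against 3.07 to 3.85 in psoas. Of animals 1, 4, 7 and 8, the highest for the members, only animal 1 was in the set of higher signal. Of the others, animals 2, 3 and 5 were in it and animal 6 was not. Restricted animals 2, 3 and 5 were in that set and restricted animal 8 was not, so feeding level and this signal were partly confounded. The r of the actin signal with the member mean was -0.49 (n = 8). The same signal of the EF1A control was 0.91, 1.16, 1.0, 0.86, 1.27, 0.90, 0.75 and 0.70 in the diaphragms of animals 1 to 8, against 0.81 to 1.5 in psoas, with r = -0.63, and that of GAPDH had r = -0.26. In animals 4, 6, 7 and 8 alone, an alternative added after seeing the data, ALB differed by 5.47 between the muscles and the median over the 10 members was 2.21. The part of RNA quality in the levels of the 10 genes was not tested.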

How the data were processed

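The authors deposited log2 expression values, 1 per probe set and array, and the submitters' processing notes name GCRMA, a background correction and quantile normalization method, with no version. Gene symbols came from the platform annotation: 10099 probe sets had 1 symbol, 198 several and 13826 none, and 124 control probe sets were left out. No further normalization was applied. The members and all gene lists were chosen with earlier results of these data known.

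Tests used limma 3.58.1 in R 4.3.3 (lmFit and eBayes) with Benjamini-Hochberg adjustment over 11467 probe sets at or above 4 on at least 4 of 16 arrays, and a call at adjusted p under 0.05. The lists were compared between muscles with sex and feeding level as covariates. A gene with several probe sets was represented by the one with the highest mean. Bounds took each psoas array below the floor at 4. Genes named were the 10 members, the 15 most alike, up to 4 per list with the smallest p, and, chosen after their values were seen, a few others of these lists and a probe set with no symbol. The labels give both arrays of a number to the same pig, and deviations from the group means correlated between the muscles with r from 0.0724 to 0.257 over the 8 animals. Within a muscle, the p-values measure the spread between these animals. The main comparison between muscles had no term for the animal, so it treated both arrays of a pig as independent. The model was tested on simulated data drawn independently for each array, so the simulation could not show what leaving out the pairing does. Alternatives were the filter, covariates, quantile normalization, the actin signal as a covariate, the animal as a block, the probe set rule, a floor and leaving out each animal. Promoter and protein sequences were not used here.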

Additional observations from a re-analysis of the deposited data

Results flagged for a closer look

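In 72 groups of 4 or 8 arrays, member values were flagged 10 times. A flag meant that the gap to the nearest other value, as a share of the group's range, exceeded Dixon's critical value. Chance exceeds it in about 1 in 20 independent groups. These groups overlap and some values were flagged more than once, so the 10 flags are not set against that rate. APOH in the diaphragm of animal 1 was at 4.57, against 2.67 for the next of the 8 diaphragms, 2.56 for the next of the high animals and 2.47 for the next male. AHSG in the same array was at 4.43, against 3.38 for the next diaphragm and 3.05 for the next of the high animals. The second FGG probe set was at 7.33 in the diaphragm of animal 8, against 2.91 for the next restricted animal, and at 3.69 in that of animal 6, below the next high animal at 5.74. The other 3 values lay in psoas groups in which every array was below the floor: FGB at 3.49 and HP at 2.57 in animal 5, and the PICA probe set at 2.20 in animal 2.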

How the results depend on the processing

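The median difference of the 10 members between the muscles was 1.56, 1.31 to 1.75 without 1 animal, 0.96 with values below 4 set to 4, and 1.28 from the medians of the within-animal differences (replicate block). The lists gave 12 genes higher and 5 lower in diaphragm, beside 12.4% and 14.6% of all tested probe sets. Such shares were not counted for the alternative fits, so changes in the list counts are not read as results about the lists. With the animal as a block the list counts were 17 and 6. Without 1 animal they were 9 to 12 and 3 to 5 (3 lower without animal 2 or 6), with no filter 8 and 3, and in animals 4, 6, 7 and 8 alone, added after seeing the data, 2 and 1, from fewer animals. The like probe sets numbered 13, 25 by Spearman rho and 20 to 37 without 1 animal. A fixed cut is reached more easily with fewer arrays, so the larger counts without 1 animal are not read as a stronger result. No member passed for feeding or sex in any alternative run. Signs that turned belonged to differences that did not pass. With the actin signal as a covariate FCN2, a ficolin of the macrophage list, was -0.066, SRPRA 0.080 and the sex difference of the second FGG probe set -0.084, and in animals 4, 6, 7 and 8 alone MT-2B was 0.035 and SRPRA 0.21. Without 1 animal FCN2 ran from -0.14 to 0.18, ARF2 from -0.082 to 0.15, and the feeding difference of APOA1 from -0.080 to 0.12. The sex difference in diaphragm ran from -0.33 to 1.27 for APOC3, -0.044 to 1.71 for ALB, -0.38 to 1.91 for FGB, -0.40 to 2.0 for HP, -0.46 to 1.33 for TF, -0.76 to 0.55 for the first FGG probe set and -0.62 to 1.47 for the second. The cause of these turns was not tested. Levels below 4 limit what can be said of AMBP, APOH and AHSG and of every member but APOA1 and FGG in psoas.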
